A study of Mus musculus with 18 samples.

Results

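Active ezrin was compared with wild type at 24 h of exit from naive pluripotency, in 6 of the 18 libraries of the study: 3 of iEZR_CA cells and 3 of WT cells, all collected 24 h after transfer to N2B27 (T24). WT cells are mouse embryonic stem cells (ESCs), for which the study gives the line E14TG2a. iEZR_CA cells were made from E14 cells by PiggyBac transposition and carry a doxycycline-inducible, phosphomimetic and therefore constitutively active form of ezrin, followed by mCherry on the same transcript. The drug was added to iEZR_CA cultures about 16 h ahead of exit. The sources name no such treatment of WT cultures, so that effects of the transgene, of doxycycline and of any other difference between the lines cannot be told apart. Whether iEZR_CA is a single clone is not given in the sources used here. Both lines grew on gelatin in 2i+LIF, which keeps ESCs naive, until the start of exit. That medium holds an inhibitor of MEK/ERK signalling, an inhibitor of GSK3 that acts as a beta-catenin agonist, and LIF. All of them are absent from N2B27 alone. Of each line, 3 libraries taken in 2i+LIF (ESC) and 3 taken at 48 h (T48) served as reference points. The libraries are polyadenylated RNA of whole cultures, in which fewer cells of a type and less RNA per cell cannot be told apart.

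Ezrin, with radixin and moesin, ties the plasma membrane to the actin cortex underneath it, and a stronger tie raises membrane tension. When naive ESCs leave 2i+LIF they shut down the transcription factors of the naive state and, within the next days, switch on a formative programme that resembles the epiblast just after implantation. FGF signalling through ERK drives this switch, and endocytosis of signalling receptors at the plasma membrane takes part in it.

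The gene counts of a WT library summed to 13587076 at the lowest, 21209425 at the median and 33276622 at the highest, and those of an iEZR_CA library to 15200664, 21694717 and 26989941. The shares of reads that were not aligned (13.2% to 13.5%) and that fell on more than 1 gene (4.63% to 4.76%) overlapped between the lines. Reads left out for low alignment quality took 0.519%, 0.580% and 0.593% of the WT libraries, in order of size, and 0.917%, 1.0% and 1.02% of the iEZR_CA libraries. Transcripts of the mitochondrial genome took 0.577% to 0.644% of the gene counts in WT cells and 0.765% to 0.857% in iEZR_CA cells. Neither measure overlapped between the lines, and their part in the results below was not tested.

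Of the 18469 genes tested, 11253 (60.9%) differed between iEZR_CA and WT cells at T24 with an adjusted p-value under 0.05 (edgeR's quasi-likelihood test). Of these, 5697 (30.8% of the genes tested) were higher and 5556 (30.1%) lower in iEZR_CA cells, so 50.6% of the calls were higher. When libraries were scaled to their spike-in RNA instead, 7129 genes were called and 61.1% of them were higher. The replicates lay close together, with a common biological coefficient of variation of 2.98%, and 2858 of the calls were under a factor of 1.2. Beyond a factor of 2, 1456 genes were higher (7.88% of the genes tested) and 1292 were lower (7%). Among all genes tested, the 3 iEZR_CA and the 3 WT libraries did not overlap in 11808 (63.9%). The median log2 fold change over all genes was -0.00195, and 90% of genes lay between -1.30 and 1.45. Counts of gene list members below are to be read against these shares, since any list of this size would hold many called genes.

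**Figure D1:**
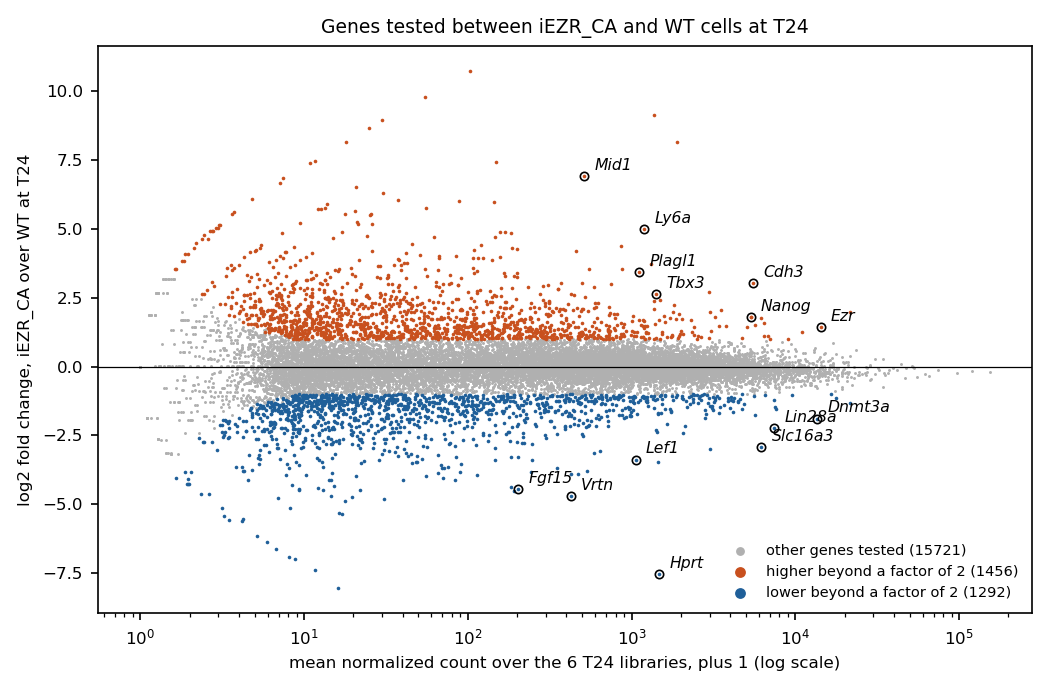
Log2 fold change of iEZR_CA over WT at T24 (y axis) against the mean normalized count of the 6 libraries plus 1 (x axis, log scale) for the 18469 genes tested, with the 1456 genes higher and the 1292 genes lower beyond a factor of 2 in colour and 14 genes of the text circled. Both tails reach into abundant genes such as Nanog, Ezr and Cdh3 above 0 and Dnmt3a, Lin28a and Slc16a3 below it.

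The altered gene itself was examined first. Ezr (ENSMUSG00000052397, GRCm38, chr17:6738041-6782784, minus strand) had 7890, 7703 and 7539 normalized counts in the WT T24 libraries and 21299, 20185 and 20894 in the iEZR_CA T24 libraries. All iEZR_CA libraries lay above all WT libraries, by a mean ratio of 2.70 (two-sided exact permutation test, p = 0.1, the smallest p that 3 libraries against 3 allow). The counts do not separate transgene from endogenous reads, and on the log2 scale the difference was 1.43 (SE 0.026, adjusted p = 2.17e-52). Of the 19 measured genes for ERM proteins, their kinases, scaffolds and membrane linkers, Ezr included, 9 were higher, 8 lower (2 with spike-in scaling) and 2 did not pass. Msn, which encodes moesin, had 4380, 4472 and 4357 normalized counts in WT and 6198, 6068 and 5889 in iEZR_CA cells, and rose by 0.46 on the log2 scale. Rdx, which encodes radixin, was slightly lower in iEZR_CA cells (6942, 6854 and 6832 against 6407, 6520 and 6386). The 3 ERM genes therefore did not move together. Nf2, whose product merlin is related to the ERM proteins, rose by 0.45, and Slk, a kinase that phosphorylates them, by 0.52. Myo1f, a myosin I that also bridges membrane and actin, fell the most among the abundant members, from 1416, 1414 and 1483 in WT cells to 467, 496 and 522 in iEZR_CA cells (log2 fold change -1.53).

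Genes of the actin cortex and its contractility moved in both directions. Of 28 measured, 14 were higher and 11 lower (4 with spike-in scaling), with a median of 0.05 and no rise beyond a factor of 2. Tpm1, a tropomyosin that stabilises actin filaments, was at 2224, 2371 and 2349 normalized counts in WT and at 4543, 4477 and 4501 in iEZR_CA cells. Myh9, the heavy chain of non-muscle myosin IIA, fell from 11389, 11278 and 11699 to 7702, 7909 and 7478. Myl9, a regulatory light chain, fell by 1.57 on the log2 scale and the GTPase gene Rhoc by 1.30, whereas Rhoa was higher by 0.09. Zyx, the gene of the focal adhesion protein zyxin, had 619, 701 and 649 normalized counts in WT and 219, 203 and 244 in iEZR_CA cells (log2 fold change -1.56, adjusted p = 1.95e-31). Of 18 measured genes read as targets or partners of the tension-responsive factors SRF and YAP, 9 were higher and 7 lower, with 3 of the latter (Ajuba, Lats2 and Vcl) on chromosome 14. The low block of that chromosome described below spans 50 to 80 Mb and not the whole chromosome, and Ajuba lies inside it. Ccn1, a secreted matrix protein and YAP target, rose from 323, 340 and 361 to 1252, 1306 and 1269, and Ccn2 by 0.71 on the log2 scale. Tead4 rose by 1.42 and Tead2 fell by 1.12, both of them DNA-binding partners of YAP. Yap1 did not pass the test (log2 fold change -0.003, adjusted p = 0.93).

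Genes of the endocytosis list changed little in size. Of 26 measured, 15 were higher, 3 lower (1 with spike-in scaling) and 8 did not pass, the median was 0.20, and no member passed a factor of 2. Another 5 members had too few counts to test. Dab2, an endocytic adaptor outside this list, rose beyond a factor of 2 and is given below with the primitive endoderm markers. The largest rise among them was in Ap2s1, a subunit of the adaptor that recruits clathrin to the membrane, from 1029, 1106 and 1058 to 1704, 1722 and 1678. The largest fall was in Cltc, the clathrin heavy chain, from 14829, 14933 and 15530 to 9773, 10308 and 9754 (log2 fold change -0.60). The 3 genes of RAB5, the GTPase of early endosomes, differed in sign, with log2 fold changes of -0.14 for Rab5a (adjusted p = 0.046), 0.39 for Rab5b and 0.14 for Rab5c.

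The naive transcription factors were mostly higher in iEZR_CA cells at T24. Of 15 measured, 13 were higher, 7 of them beyond a factor of 2, 1 was lower and 1 did not pass, and the median was 0.75. Tbx3 stood furthest above WT. It had 406, 394 and 358 normalized counts in WT T24 cells and 2393, 2490 and 2407 in the iEZR_CA libraries (log2 fold change 2.64, SE 0.047, adjusted p = 8.56e-48). Its means were 7749 in WT ESCs and 37.4 in WT T48 cells. Klf4, a factor downstream of LIF, was at 494, 484 and 473 in WT and at 1491, 1478 and 1630 in iEZR_CA cells. Prdm14, which keeps DNA methylation low in naive cells, was at 105, 124 and 88.3 against 344, 323 and 331. Tfcp2l1 had 1950, 1918 and 2109 normalized counts in WT and 5496, 5881 and 5187 in iEZR_CA cells. For each of these genes the iEZR_CA level lay between the means of WT ESCs and WT T24 cells. Zfp42 (Rex1), a widely used naive reporter gene that was still high in WT T24 cells (mean of 18260 in WT ESCs), differed less, with 12772, 12516 and 11985 in WT and 17924, 17301 and 17888 in iEZR_CA cells. Klf2 did not pass the test (log2 fold change 0.27, adjusted p = 0.072). Nr0b1, whose WT mean was 2837 in ESCs, was the exception, with 7642, 7872 and 7782 in WT and 6320, 6359 and 6487 in iEZR_CA cells, a call that was lost under spike-in scaling (log2 fold change -0.21, adjusted p = 0.18).

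Formative genes showed the opposite pattern. Of 22 measured genes of the formative and early post-implantation epiblast, 21 were lower in iEZR_CA cells, 17 of them beyond a factor of 2, and the median was -1.35. Fgf5, the classical marker of this state, had 1059, 1043 and 1047 normalized counts in WT and 132, 110 and 123 in iEZR_CA cells. Pou3f1 (Oct6), a POU factor of the same stage, was at 5877, 5286 and 4838 in WT and at 790, 550 and 723 in iEZR_CA cells. Lef1, a transcription factor of the WNT pathway that comes on in the epiblast, had 1940, 1945 and 1898 against 202, 168 and 193 (log2 fold change -3.38, adjusted p = 4.76e-54). In these 3 genes the lines lay far apart, with no overlap between libraries. Grhl2, which opens chromatin at epithelial genes, had 3446, 3527 and 3424 in WT and 650, 621 and 678 in iEZR_CA cells. Otx2, a factor that drives exit, was at 4822, 4712 and 4644 against 2292, 1997 and 2153. Smaller differences were measured for Foxd3 (log2 fold change -0.84), Sox3 (-0.85) and Utf1 (-0.48). Krt18, a keratin, was the only member of the list that was higher (92.1, 89.8 and 69.4 against 130, 141 and 150). Factors shared by the naive and the formative state changed less: Sox2 was higher by 0.11 on the log2 scale, and Pou5f1 (Oct4) fell from 18147, 18579 and 18895 to 13292, 13127 and 13421.

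De novo DNA methyltransferases, which cells switch on during exit, were lower in iEZR_CA cells. Dnmt3a, a de novo methyltransferase, had a mean of 1230 normalized counts in WT ESCs. At T24 it had 21226, 21062 and 21655 in WT and 5843, 5847 and 5523 in iEZR_CA cells (a log2 difference of -1.89, SE 0.030, adjusted p = 2.3e-48). Dnmt3b was at 30744, 31309 and 29666 in WT and at 12600, 12273 and 11862 in iEZR_CA cells. Their cofactor Dnmt3l differed less, with 21189, 21282 and 21805 against 15116, 14803 and 15278. The maintenance enzyme Dnmt1 was lower by 0.09 on the log2 scale, and the dioxygenase gene Tet1 by 0.71. Over the list of 13 writers and erasers, 10 were lower and 1 higher (2 higher without WT replicate 1 or iEZR_CA replicate 2). With spike-in scaling 5 were lower. Germline genes that promoter methylation keeps silent were split, 6 higher and 9 lower of 19 measured (5 lower with spike-in scaling). Mael, which acts in transposon silencing in germ cells, fell from 261, 254 and 265 to 95.8, 84.3 and 108. Brdt, a testis bromodomain gene, instead rose by 2.47 on the log2 scale.

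Of the 7 secreted FGF ligands measured, 5 fell and 2, Fgf8 and Fgf10, did not pass. The receptor genes moved both ways: Fgfr1 to Fgfr4 were higher, Fgfr3 at low counts that overlapped between the lines, and Fgfrl1, a receptor without a kinase domain, was lower by 0.25 on the log2 scale. Fgf4, the main FGF of ESCs, had 9611, 9639 and 9358 normalized counts in WT and 5771, 5553 and 5472 in iEZR_CA cells. Fgf15 had 366, 411 and 386 in WT and 17.5, 14.4 and 21.6 in iEZR_CA cells (log2 fold change -4.44, adjusted p = 2.97e-37). Fgf17 was lower by 3.46 on the log2 scale and lies in a block of chromosome 14 described below. Fgf13, which belongs to the family but encodes an intracellular protein, rose by 0.53. Among the receptors, Fgfr1 rose from 3213, 3184 and 3184 to 4538, 4517 and 4507, and Fgfr2 by 0.67. Fgfr1 lies on chromosome 8, in a window of 5 Mb with a median log2 fold change of 0.402, against 0.50 for the gene. Sdc4, a heparan sulphate co-receptor, rose from 2608, 2760 and 2785 to 5048, 4938 and 4989. Of the 19 FGF ligands, receptors and co-receptors measured, 9 were higher and 7 lower.

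Genes that ERK activity induces were lower more often than higher. Of 20 feedback inhibitors and targets measured, 12 were lower and 4 higher (2 higher with spike-in scaling), with a median of -0.29. Dusp6, the ERK phosphatase, had 2591, 2581 and 2546 normalized counts in WT and 1576, 1557 and 1631 in iEZR_CA cells. Dusp4, another ERK phosphatase, fell further, from 2401, 2435 and 2363 to 786, 824 and 849 (log2 fold change -1.54, adjusted p = 4.9e-43). Spry4, an inhibitor of receptor signalling, fell from 1971, 2033 and 2071 to 1246, 1191 and 1179. The same direction was measured for Spry2 (log2 fold change -1.08), Fosl1 (-1.20), Epha2 (-0.64), Etv5 (-0.30), Spred2 (-0.27) and Spred1 (-0.21). The medium of the ESC libraries held the MEK/ERK inhibitor for both lines. In ESCs Dusp6 (-0.60), Dusp4 (-1.06), Spry2 (-0.69), Fosl1 (-1.61), Epha2 (-0.79), Etv5 (-0.07) and Spred2 (-0.35) were already lower. Spry4 (0.61) and Spred1 (0.53) were higher there, and the list median was -0.18. The change of the difference from ESC to T24 did not pass for Dusp6, Dusp4, Fosl1 and Spred2. At T24, other members went another way. Epha4, an Eph receptor, and Etv4, an ETS factor, rose by 0.91 and 0.26, and Spry1, Phlda1, Dusp5 and Ier3 did not pass. Of 15 immediate early genes, which growth factors and serum induce within minutes, 8 were lower and 3 higher. Egr1 was at 274, 297 and 232 in WT and at 17.5, 32.7 and 22.5 in iEZR_CA cells, Btg2 rose from 656, 752 and 719 to 1198, 1114 and 1178, and Fos and Jun did not pass.

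Srf itself, the factor that binds the CArG box in front of many immediate early genes, fell by 0.73 on the log2 scale. Its promoter is shown because it carries the letters CCATATAA, a part of the CArG box, in both orientations within 82 bases before the start (GRCm38.p6, RefSeq, minus strand, chr17:46556205-46556264 and chr17:46556163-46556222, letters in capitals):
Srf, first window: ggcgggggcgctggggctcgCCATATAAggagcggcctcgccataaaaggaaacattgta
Srf, second window: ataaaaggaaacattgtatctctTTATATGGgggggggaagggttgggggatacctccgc
Read on both strands of the 250 bases before the start, these letters were present in 0.169% of 11274 promoters of genes tested, in 0.643% of the promoters of genes higher beyond a factor of 2 and in 0.546% of those lower beyond a factor of 2. The counts behind these shares are small: 19 of 11274, 6 of 933 and 4 of 732 promoters. The letters CCGGAAGT of the ETS family, the class of factor that ERK phosphorylates, were present in 5.69% of all promoters, in 1.71% of the higher and in 2.32% of the lower set. For the letters CTTTGATG of TCF and LEF factors the shares were 0.603%, 0.536% and 0.41% (68, 5 and 3 promoters). Within the lists, the CArG letters were found in 1 of 13 promoters of immediate early genes and in 1 of 13 of ERK feedback inhibitors and targets, the ETS letters in 0 of 13 of each, and the TCF and LEF letters in 0 of 12 of WNT targets. These shares describe letters and not bound sites.

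Most WNT targets did not pass the test, and more genes of the WNT machinery were higher than lower. Ctnnb1, the gene of beta-catenin, was at 18092, 18464 and 18947 normalized counts in WT and at 17923, 18139 and 18187 in iEZR_CA cells and did not pass the test (adjusted p = 0.26). Axin2, the general target gene of the pathway, had 489, 460 and 424 against 522, 450 and 489 and did not pass either (adjusted p = 0.72). Of 17 targets measured, 1 was higher (3 without WT replicate 3), 5 were lower and 11 did not pass. Of those that did not pass, Sp5, Cdx1, Cdx2, Rnf43 and Dkk1 had under 3 normalized counts in a group, too few for a fold change. The member that was higher was Apcdd1, an inhibitor of WNT ligands, with 136, 147 and 121 in WT and 494, 488 and 521 in iEZR_CA cells. Ccnd1, cyclin D1, fell from 8506, 8584 and 8474 to 4501, 4464 and 4445. Ligands, receptors and other machinery were higher in 13 of 23 and lower in 3. Wnt7b, a ligand, rose from 16.7, 10.1 and 15.8 to 105, 109 and 121. Sfrp1, which binds WNT ligands outside the cell, rose from 417, 437 and 389 to 1021, 994 and 1026.

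BMP pathway genes were higher in 13 of 16 and lower in 1, with a median of 0.65. Bmp4, the ligand that maintains naive cells together with LIF, had 74.7, 81.8 and 85.1 normalized counts in WT and 614, 659 and 695 in iEZR_CA cells (log2 fold change 3.06, adjusted p = 3.29e-39). Bmp4 was already higher in iEZR_CA ESCs (log2 fold change 2.54). Id2, a target gene of the pathway, was higher at both stages, by 2.32 in ESCs and 2.20 at T24. At T24 Id2 rose from 101, 108 and 110 to 473, 488 and 489. On the log2 scale Id4 rose by 1.38, Id3 by 0.66, Id1 by 0.60 and the feedback inhibitor Smad6 by 1.45. In ESCs, by contrast, Id1 and Id4 were lower (log2 fold changes -1.35 and -0.59) and Id3 and Smad6 did not pass. Dusp9 was the member that was lower (log2 fold change -0.21), a call lost under spike-in scaling.

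NODAL genes were split, with 7 of 17 higher and 8 lower (4 lower with spike-in scaling and 5 without iEZR_CA replicate 2). Nodal itself did not pass (log2 fold change 0.09, adjusted p = 0.052). Tdgf1, its co-receptor, fell from 6682, 6417 and 6114 to 2826, 2735 and 2877, and Skil, an inhibitor of SMAD proteins that the pathway induces, from 6810, 7151 and 6912 to 2923, 2802 and 2515. Smad3, a transducer of the signal, rose from 741, 769 and 782 to 1678, 1592 and 1525. Lefty1, a secreted inhibitor of NODAL, had 703, 746 and 705 in WT and 719, 477 and 608 in iEZR_CA cells, groups that overlap.

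In the LIF and STAT3 pathway, 8 of 13 genes were higher and 5 lower. The largest rises were those of Klf4 and Tfcp2l1, given above with the naive factors. Il6st, the gene of the receptor subunit gp130, rose by 0.46 on the log2 scale. Outside the list, Il6ra, the receptor subunit of interleukin 6, rose from 42.5, 32.3 and 37.8 to 301, 258 and 275. Among the targets, Socs3 rose by 0.45, whereas Pim1 fell by 0.47 and Pim3 by 0.39. Gbx2, a homeobox gene that LIF induces, was furthest down, with 1003, 1022 and 933 in WT and 227, 226 and 222 in iEZR_CA cells.

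Adhesion and matrix genes held some of the clearest differences. Cdh3, P-cadherin, had 1205, 1239 and 1181 normalized counts in WT and 9817, 10253 and 9510 in iEZR_CA cells (log2 fold change 3.03, adjusted p = 3.88e-64). Cdh1, E-cadherin, rose by 0.32 on the log2 scale, and Cdh2, N-cadherin, fell by 1.25. Epcam, an epithelial adhesion molecule, was at 4265, 4258 and 4062 in WT and at 1457, 1357 and 1446 in iEZR_CA cells. Over 21 cadherins, junction genes and regulators of the epithelial to mesenchymal transition, 9 were higher and 7 lower. Integrins and matrix genes leaned one way, with 17 of 23 higher, 3 lower and a median of 0.48. Lama1, a laminin chain of basement membrane, rose the most among the abundant members, from 154, 140 and 156 to 384, 416 and 392, and Sparc, which binds collagen, from 3065, 3160 and 3001 to 6396, 6433 and 6350. The collagen IV genes Col4a1 and Col4a2 rose by 1.0 and 1.33 on the log2 scale and the perlecan gene Hspg2 by 1.0. Lamb1, another laminin chain, was furthest down, from 1139, 1145 and 1176 to 650, 669 and 635. Among Eph receptors and ephrins, which sort cells by contact, 9 of 17 were higher and 5 lower, and Efnb2 fell from 2867, 2869 and 2798 to 1360, 1182 and 1227.

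**Figure D2:**
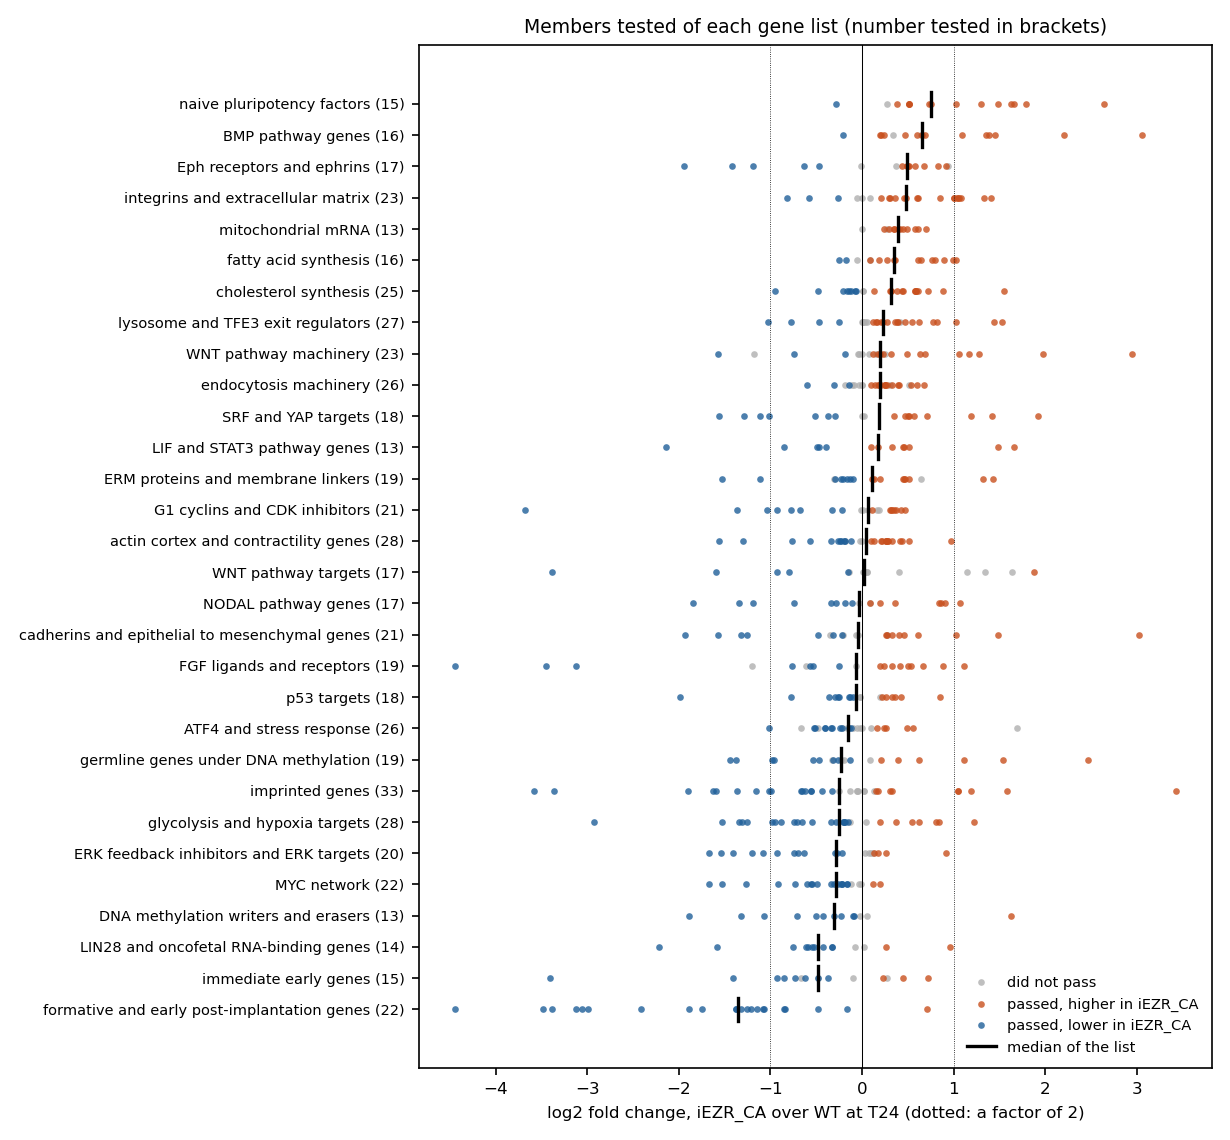
Log2 fold change of iEZR_CA over WT at T24 (x axis) for each measured member of 30 gene lists (y axis, number tested in brackets), coloured by whether the member passed the test, with the list median as a bar. Medians run from -1.35 for formative genes to 0.75 for naive factors, and most lists hold members on both sides of 0.

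Glycolysis genes, many of which rise during exit, were lower in 19 of 28 and higher in 7, with a median of -0.25. With spike-in scaling 12 were lower. The list median was already -0.28 in ESCs. Slc16a3, the lactate exporter MCT4, had means of 135 normalized counts in WT and 47.2 in iEZR_CA ESCs. At T24 it had 11327, 10936 and 10490 in WT and 1493, 1377 and 1443 in iEZR_CA cells (a log2 difference of -2.93, adjusted p = 3.74e-57). Ldha, which makes lactate from pyruvate, was at 11667, 11279 and 10820 in WT and at 3882, 3794 and 4021 in iEZR_CA cells. Pkm, pyruvate kinase, fell from 43297, 43058 and 43058 to 25989, 25542 and 25466. The glucose transporter Slc2a3 went the other way, from 12469, 12059 and 12133 to 21635, 22508 and 21597, while Slc2a1 was lower by 0.19 on the log2 scale. Bnip3, a mitophagy gene that hypoxia induces, fell from 422, 418 and 367 to 170, 157 and 166. Counts of genes with many processed copies, such as Gapdh and Pgk1, are uncertain because reads that align to several places were left out.

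The E-box CACGTG, bound by MYC, HIF and TFE factors among others, was found in 4 of 26 promoters of this list (15.4%) and in 8.33% of all 11274 promoters, read in the 250 bases before the start. It was present in 5.89% of promoters of genes higher beyond a factor of 2 and in 8.61% of those lower. Of the glycolysis genes named above, Ldha (plus strand, chr7:46845639-46845698 and chr7:46845736-46845795) and Bnip3 (minus strand, chr7:138909575-138909634) hold it, and their windows are printed from RefSeq on GRCm38.p6, in the direction of transcription, with the E-box in capitals:
Ldha, 145 to 140 bases before the start: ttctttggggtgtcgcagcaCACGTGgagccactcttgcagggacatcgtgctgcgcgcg
Ldha, 48 to 43 bases before the start: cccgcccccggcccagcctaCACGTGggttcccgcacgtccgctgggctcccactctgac
Bnip3, 108 to 103 bases before the start: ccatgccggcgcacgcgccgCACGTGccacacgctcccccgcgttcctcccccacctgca

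Genes of the MYC network were lower in 17 of 22 and higher in 2 (0 or 1 when any T24 library was left out), with a median of -0.29. With spike-in scaling 9 were lower. Myc had means of 154 normalized counts in WT and 71.7 in iEZR_CA ESCs. At T24 it had 2221, 2203 and 2189 in WT and 719, 681 and 685 in iEZR_CA cells. Mycn had 6381, 6481 and 6113 against 2788, 2591 and 2520. The nucleolar targets Nolc1, Npm1 and Ncl fell by 0.74, 0.50 and 0.34 on the log2 scale. Cytosolic ribosomal protein genes, 83 of them, had a median of -0.00265, with 16 higher and 23 lower. LIN28 and other RNA-binding genes of fetal and tumour cells were lower in 10 of 14. Lin28a, which blocks maturation of let-7 microRNAs, had means of 1591 in WT and 259 in iEZR_CA ESCs (log2 fold change -2.64). At T24 it had 11763, 12211 and 12508 in WT and 2647, 2477 and 2697 in iEZR_CA cells (a log2 difference of -2.22, adjusted p = 3.74e-57). Hmga2, a let-7 target, was higher (386, 360 and 386 against 751, 726 and 726). Cyclins of G1 and CDK inhibitors split evenly, 8 higher and 8 lower of 21, with Ccnd2, cyclin D2, at 668, 609 and 683 in WT and at 45.9, 47.9 and 57.2 in iEZR_CA cells.

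Lipid synthesis genes leaned upward. Fatty acid genes were higher in 12 of 16 and lower in 2, and cholesterol genes were higher in 15 of 25 and lower in 8. With spike-in scaling 0 and 2 were lower, and without iEZR_CA replicate 3 1 fatty acid gene was lower. The fatty acid median was 0.35 at T24 and 0.40 in ESCs, and the cholesterol median 0.32 and 0.37. Srebf1, the factor that switches on fatty acid synthesis, rose from 2720, 2784 and 2718 to 5214, 5005 and 5062. Among the cholesterol enzymes, Hmgcs1 fell from 13424, 13726 and 13901 to 9776, 10035 and 9496, whereas Ebp, Pmvk and Dhcr7 rose by 0.88, 0.72 and 0.58 on the log2 scale. The sterol motif ATCACCCCA was present in 1 of 17 promoters of the list and in 0.151% of all promoters. Mitochondrially encoded mRNAs were higher in 11 of 13, with a median of 0.39 and none beyond a factor of 2, and mt-Co1 did not pass (adjusted p = 0.98). Nuclear genes of respiratory complex I were higher in 19 of 36 and lower in 2, with a median of 0.11.

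Lysosomal genes and TFE3-related regulators of exit were higher in 17 of 27 and lower in 4. Tfeb and Tfe3, related factors that switch on lysosomal genes, went in opposite directions. Tfeb had a mean of 1369 normalized counts in WT ESCs, 215, 235 and 194 in WT T24 cells and 610, 607 and 649 in iEZR_CA T24 cells, and Tfe3 was at 4885, 4986 and 5088 in WT and at 2896, 2966 and 2875 in iEZR_CA T24 cells. Lamp1 and Lamp2, lysosomal membrane proteins, rose by 0.78 and 0.82 on the log2 scale, Fnip2, a partner of folliculin, fell by 1.03, and Flcn, folliculin itself, did not pass.

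Stress genes were mixed. Of 26 measured ATF4 and stress response genes, 5 were higher, 11 lower and 10 did not pass, and with spike-in scaling 3 were lower. Atf4 fell from 5127, 5239 and 5106 to 4024, 4236 and 4058. Chac1, a glutathione-degrading enzyme that ATF4 induces, fell from 139, 140 and 131 to 62.0, 74.5 and 63.8. Nupr1, a small stress-induced chromatin protein, rose by 0.55 on the log2 scale. The ATF4 letters TGATGCAA were found in 6 of 22 promoters of the list (27.3%) and in 0.55% of all promoters. Chac1, which fell, and Nupr1, which rose, both hold them within 250 bases before the start in the reverse orientation, as their windows show (Chac1, plus strand, chr2:119351029-119351088, and Nupr1, minus strand, chr7:126625541-126625600, RefSeq on GRCm38.p6, letters in capitals):
Chac1: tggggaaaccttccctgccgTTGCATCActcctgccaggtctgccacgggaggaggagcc
Nupr1: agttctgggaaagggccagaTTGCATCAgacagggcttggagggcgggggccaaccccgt
Targets of p53 numbered 6 higher and 9 lower of 18 (2 lower with spike-in scaling). Pmaip1 (Noxa), which promotes apoptosis, fell from 871, 952 and 886 to 233, 245 and 203, and Cdkn1a (p21), which halts the cell cycle, rose by 0.43.

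Among the protein-coding genes with the largest differences at T24, the rises were mostly genes close to the floor of detection in WT T24 cells. Some of them had more counts in ESCs of both lines. Ly6a, Msc and Aspa had means of 2359, 372 and 320 normalized counts in WT ESCs. In iEZR_CA cells their means were 7026, 869 and 1134 in ESCs and 2312, 229 and 351 at T24. Mid1 (8.18) and Plscr2 (10.3) were low in WT ESCs as well. Mid1, a microtubule-associated ubiquitin ligase on the X chromosome, had 9.02, 8.08 and 6.31 normalized counts in WT and 1051, 968 and 1011 in iEZR_CA cells (log2 fold change 6.92, adjusted p = 7.25e-54). Ly6a (Sca-1), a surface protein of several stem and progenitor cells, had 74.7, 74.7 and 64.6 in WT and 2231, 2298 and 2406 in iEZR_CA cells. Tinagl1, a secreted matrix protein, was at 5.80, 0 and 7.88 in WT and at 246, 292 and 315 in iEZR_CA cells. The other 9 of the 12 largest rises had log2 fold changes from 4.23 (Plscr2, a phospholipid scramblase family gene) to 4.91 (Fbln5, an elastic fibre protein), and among them were the prostaglandin transporter Slco2a1 (4.87), the NADPH oxidase Duox1 (4.71), the orphan receptor Gprc5a (4.38) and the innate immune receptor Tlr2 (4.32).

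Hprt, the purine salvage enzyme on the X chromosome, had the largest fall among these genes, with 2932, 3105 and 2790 normalized counts in WT and 16.2, 12.9 and 18.8 in iEZR_CA cells (log2 fold change -7.54, adjusted p = 2.34e-52). The log2 fold change in ESCs was -8.28. E14TG2a is known as an HPRT-deficient line, whereas here the libraries labelled WT carried the reads. Ezr ran as the labels say, with a mean ratio of 2.7 of iEZR_CA over WT. The source of the Hprt difference was not tested. Differences that were fixed in one line before the transgene was switched on cannot be told apart from those that followed it. Vrtn, a gene of vertebral development, fell from 813, 807 and 824 to 35.1, 25.1 and 36.6. The remaining large falls included developmental regulators such as Wt1 (log2 fold change -3.89), Bcl11a (-3.82) and Sall2 (-3.48), the insulin receptor substrate Irs4 (-4.51) and the carbonic anhydrase Car4 (-3.94).

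The same contrast in ESCs, before exit, uses other libraries of both lines and shows which differences were already present at that point. The labels give about 16 h of doxycycline for the iEZR_CA ESC libraries too. Ezr was already higher there, with means of 24819 normalized counts against 11763 in WT ESCs (log2 fold change 1.07). These libraries therefore do not show the line before induction. In ESCs 10058 genes (54.5% of those tested) differed. Of the 1456 genes higher beyond a factor of 2 at T24, 582 (40%) were also higher beyond a factor of 2 in ESCs and 389 (26.7%) were not called there. Of the 1292 lower genes, 555 (43%) were lower beyond a factor of 2 in ESCs and 519 (40.2%) were not called. The share of all genes beyond a factor of 2 in ESCs is not given here, so the 40% and 43% have no background. The shares not called are to be read against the 54.5% called over all genes. Across the 18469 genes the log2 fold changes at the 2 stages had a Pearson correlation of 0.58 and a Spearman correlation of 0.526, a description in which genes are not independent replicates and the points share the 2 cell lines. The interaction of line and time, which tests whether the difference between the lines changed from ESC to T24, passed for 7081 genes (38.3%), and for 2416 with spike-in scaling.

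Naive factors and formative genes stood differently in this respect. The median of the 15 naive factors was -0.07 in ESCs and 0.75 at T24. Tbx3 (log2 fold change -0.06 in ESCs, interaction 2.69) and Nanog (-0.19 in ESCs, interaction 1.98) were among the 8 largest rises by interaction of genes with little difference in ESCs. The others were Il6ra (interaction 2.56), Zfp607b (2.49), Card10 (2.28), Gnal (2.21), Stard8 (2.18) and Reep1 (1.82). The median of the 22 formative genes was -0.89 in ESCs, where some members were near the floor of detection: Fgf5 had means of 6.16 normalized counts in WT and 0.933 in iEZR_CA ESCs, too few for a fold change. Lef1 went from -0.95 in ESCs to -3.38 at T24. Other formative genes were already lower in ESCs, and their interaction did not pass: Zic2 (-1.14 in ESCs), Zic5 (-1.20), Tcf15 (-1.82), Sox3 (-0.83) and Cdh2 (-1.01). Dnmt3a and Dnmt3b were higher in iEZR_CA ESCs, by 0.61 and 0.21, and lower at T24. Sgk1, a kinase that growth factor signalling induces, had 6216, 6610 and 6105 in WT T24 cells and 2120, 1937 and 2043 in iEZR_CA T24 cells and belonged, with Zyx, Epcam, Mael, Bnip3, Dnmt3b, Nlrc4 and Slc1a3, to the 8 largest falls by interaction of genes with an absolute log2 fold change under 0.3 in ESCs. Cdh3 was high at both stages (3.18 in ESCs and 3.03 at T24, with an interaction of -0.15, adjusted p = 0.022). Mid1 was at 6.95 and 6.92, and its interaction did not pass (adjusted p = 0.97). For Plagl1, an imprinted zinc finger gene, the difference was 0.67 in ESCs and 3.43 at T24, where it had 177, 192 and 213 normalized counts in WT and 2083, 2072 and 1962 in iEZR_CA cells.

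**Figure D3:**
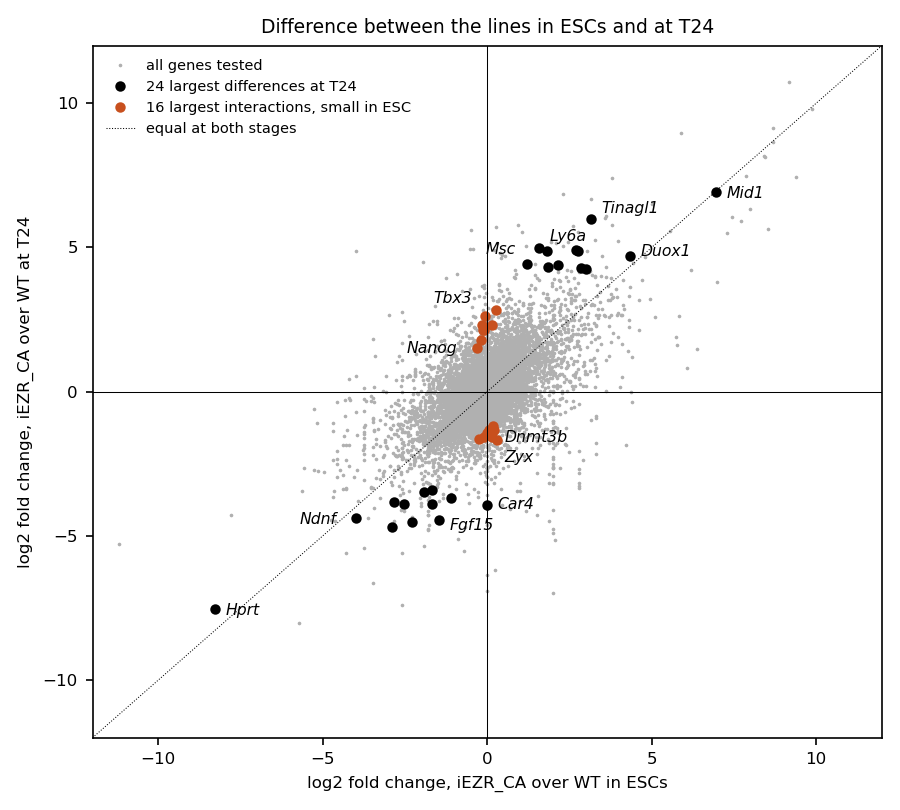
Log2 fold change of iEZR_CA over WT at T24 (y axis) against that in ESCs (x axis) for all 18469 genes tested, with the 24 protein-coding genes of largest difference at T24 in black, the 16 of largest interaction with little difference in ESCs in orange and the line of equal differences dotted. Mid1 and Hprt lie on or near that line and Ly6a and Msc above it, while the places of Car4 (0 counts in ESCs of both lines), Fgf15, Ndnf, Bcl11a, Irs4 and Vrtn on the x axis rest on under 3 normalized counts in iEZR_CA ESCs and cannot be read.

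Markers of other cell types were checked in the same libraries, as TPM, a count scaled to gene length and to the total of the library, summed over each list. The ES cell list summed to 10070 to 10290 TPM in WT and to 9450 to 9812 TPM in iEZR_CA cells, far above every other list in each library, with 3 of its 10 members higher, 6 lower and a median of -0.48. Trophectoderm markers summed to 21.3 to 23.2 TPM in WT and to 89.7 to 96.1 TPM in iEZR_CA cells, with 5 of 8 measured members higher, among them Tfap2a (log2 fold change 2.64), Gata3 (2.54) and Ascl2 (2.40), while Elf5 and Prl3d1 had too few counts to test. The other 3 measured members did not pass. Among these was Cdx2, with means of 0.64 normalized counts in WT and 0.96 in iEZR_CA cells. The lowest log2 fold change of a trophectoderm marker was -0.89. The median of this list was 1.05 at T24 and 1.04 in ESCs. Primitive endoderm markers summed to 4.44 to 5.23 TPM against 9.52 to 10.3 TPM. Most of that came from Dab2, an endocytic adaptor, which rose from 25.8, 32.3 and 42.6 to 279, 328 and 301 normalized counts, and Gata6, Gata4 and Sox17 did not pass. Neural markers summed to 78.3 to 80.6 TPM against 114 to 121 TPM, with Nes and Tubb3 higher and Sox1 and Neurod1 lower. Mesendoderm markers summed to 7.10 to 7.54 TPM against 10.5 to 12.8 TPM, and 5 of 8 measured members were higher and none lower, with a median of 1.31. Tbx6, Mixl1, Gsc and Evx1 were higher beyond a factor of 2 from low levels and Kdr by 0.89 on the log2 scale, whereas T, Eomes and Foxa2 did not pass. Two-cell-like and fibroblast lists stayed under 10 TPM in every library. The part of these markers in the differences above was not tested.

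Differences were not spread evenly over the chromosomes. Chromosome 14 had a median log2 fold change of -0.354, with 324 of 643 genes (50.4%) lower. This came from a block: in the 6 windows of 5 Mb from 50 to 80 Mb, medians lay between -1.03 and -0.713 and 85.2% to 92.9% of the genes were lower, and the medians of the same windows in ESCs were -1.10 to -0.84. The window from 45 to 50 Mb, which holds Bmp4 and Otx2, had a median of -0.02. Sall2, Fgf17, Ajuba, Fdft1 and Rb1 lie inside the block, and their falls are to be read with it. Chromosome 8 had a median of 0.213 (0.178 in ESCs), with 49.9% of its genes higher and 15.3% lower, and Fgfr1, Zfp42, Sfrp1, Cdh1, Cdh3, Col4a1, Col4a2, Tubb3 and Lamp1 lie on it. The copy number of these chromosomes was not measured here. Without chromosomes 8, 14 and M, 10164 of 16852 genes were called.

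**Figure D4:**
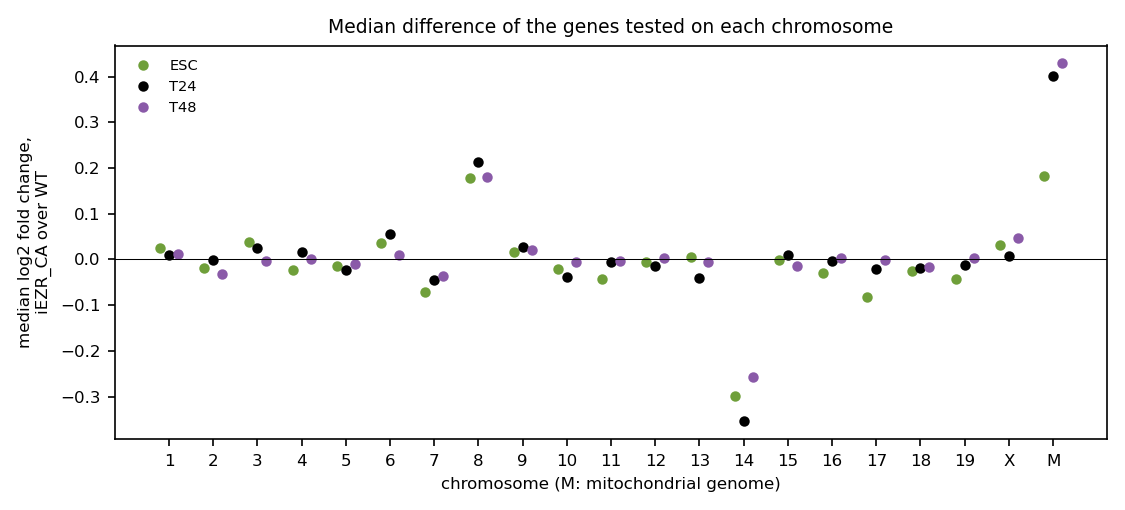
Median log2 fold change of iEZR_CA over WT (y axis) over the genes tested on each chromosome (x axis), in ESCs, at T24 and at T48. Chromosome 14 lies below 0 and chromosome 8 and the mitochondrial genome lie above it at all 3 stages, and the T24 medians of the others are within 0.06 of 0.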

How the data were processed

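Polyadenylated RNA of mouse ESCs was sequenced with paired-end reads. Per the submitters' processing notes, reads were trimmed with Trim Galore 0.6.5, aligned to mm10 with GSNAP and counted with HTSeq; the deposited values are raw counts of reads per gene, one column per library. The strand setting is not given in the sources used here, and values of genes that overlap on opposite strands are uncertain. The table holds 53801 genes, of which 53706 were found in GENCODE M21 and 95 were not. The 92 spike-in sequences (0.685% to 0.792% of a T24 library) and 5 entries for reads outside genes were left out of library sizes.

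Counts of all 18 libraries were fitted with edgeR 4.0.16 in R 4.3.3 after filterByExpr (18469 genes), with TMM factors (0.975 to 1.03 at T24), a term for each of 6 groups (12 residual degrees of freedom), robust quasi-likelihood F tests and p-values adjusted over all of these genes after Benjamini and Hochberg. "Higher", "lower", "rose" and "fell" stand for an adjusted p-value under 0.05, and compare iEZR_CA with WT. Normalized counts are counts divided by DESeq2 1.42.0 size factors; TPM were computed from the counts and annotated gene lengths. The fit was tested on simulated data. Replicates are given as biological; p-values measure only the spread between them. Replicate pairs of a T24 group differed by more than sampling noise (chi-square per degree of freedom 1.59 to 2.38).

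Genes were named by rule, Ezr first. The 12 largest rises and 12 largest falls were taken among protein-coding genes. These had a mean of at least 100 normalized counts and no overlap between the lines. The 8 largest rises and falls by interaction had an absolute log2 fold change under 0.3 in ESCs. Of each list, the members furthest up and down among those with a mean of at least 100 were taken. Others were named where their role needs them, as were cell type markers. A few genes that the rule takes are not reported here. The comparison, the members and the lists were chosen with earlier results of these data known. Lists are described by counts and medians, without a test. Promoters (250 bases before the start, RefSeq, GRCm38.p6) were matched for 11274 of 14461 symbols of the 14462 protein-coding genes tested (Aldoa names 2 of them). Alternatives were DESeq2's test and size factors, limma-voom (limma 3.58.1), spike-in scaling, other filters, the 6 libraries alone, leaving out each library, and leaving out chromosomes 8, 14 and M.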

Additional observations from a re-analysis of the deposited data

Results flagged for a closer look

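The difference between the lines changed from ESC to T24 by more than a factor of 4 (interaction of line and time, edgeR's quasi-likelihood test, adjusted p under 0.05) for a number of the genes named here. Values are the log2 fold change of iEZR_CA over WT at T24 minus that in ESCs. Genes whose difference moved upward at T24 included the surface and matrix genes Ly6a (3.42), Tinagl1 (2.85), Fbln5 (2.21), Gprc5a (2.24) and Tlr2 (2.48), the transporter Slco2a1 (2.13), the aspartoacylase Aspa (3.03) and the factor Msc (3.2). Naive and cytokine genes in this direction were Tbx3 (2.69), Klf4 (2.15), Prdm14 (2.10) and Il6ra (2.56). Zfp607b (2.49), Card10 (2.28), Gnal (2.21), Stard8 (2.18), Tfeb (2.34), Plagl1 (2.76) and the neuronal tubulin Tubb3 (2.16) followed it too. For Lefty1 (4.05) and Lefty2 (3.36), inhibitors of NODAL, the values also moved upward: they were far below WT in iEZR_CA ESCs (log2 fold changes -4.33 and -3.70) and near WT at T24 (-0.29 and -0.34).

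Genes whose difference moved downward included Grhl2 (-3.22), Fgf15 (-2.97, from a mean of 2.70 normalized counts in iEZR_CA ESCs, under the floor of 3, so that its size is not usable), Ccnd2 (-2.58), Dnmt3a (-2.50), Lef1 (-2.43), Pmaip1 (-2.33), Dnmt3l (-2.28) and Wt1 (-2.21). Grhl2 and Dnmt3l were higher in iEZR_CA ESCs (0.81 and 1.77) and lower at T24. Over all genes tested, 52 differed beyond a factor of 2 in opposite directions in ESCs and at T24.

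Reads left out of the gene counts also differed between the lines at T24, in measures that no comparison used. The mean share with low alignment quality was 0.980% in iEZR_CA and 0.564% in WT libraries, and the mean share aligned to several places was 0.134% and 0.0830%.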

How the results depend on the processing

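Of 103 alternative values for Ezr and the counts of called genes, 97 kept their direction and stayed within a factor of 1.5, and 6 did not. Spike-in scaling, which moved the median log2 fold change of all genes to 0.0688, left 7129 genes called, 2774 of them lower, and 2416 interactions. Requiring 10 counts in each of the 6 T24 libraries left 1398 genes beyond a factor of 2, 734 higher and 664 lower, since fewer genes were tested. Leaving out 1 library gave 10300 to 11008 called genes, 2686 to 2823 beyond a factor of 2, 6452 to 6866 interactions and 1.41 to 1.46 for Ezr. DESeq2 called 10350 genes and limma-voom 11239.

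For named genes, 1219 of the alternative values kept direction and call. mt-Co1, which did not pass (-0.0035), turned to 0.064 with spike-in scaling, 0.0064 without the filter, 0.0072 with 10 counts and to between -0.037 and 0.054 when 1 library was left out (0.041 without WT replicate 1 and 0.054 without iEZR_CA replicate 2). Nr0b1, Dusp9, Fasn and Mycl lost their call with spike-in scaling, and Mycl also without WT replicate 1 or iEZR_CA replicate 3. Of the counts of list members, 984 stayed within a factor of 1.5 and 52 did not. Leaving out 1 library moved the WNT target, NODAL, DNA methylation, fatty acid and MYC counts given above and the small primitive endoderm, two-cell-like and fibroblast counts. The causes were not tested. No analysis that pairs the lines was possible because wells of a plate are the only names of the libraries, and no replicate numbers link the lines. A block over the stages within a line was not fitted. Genes with under 3 normalized counts in a group have no usable fold change, and 3 libraries a group limit single-gene comparisons.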

Other observations

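Imprinted genes were measured as a further group: of 33, 9 were higher and 16 lower in iEZR_CA cells at T24, with a median of -0.25 against 0.29 in ESCs. Slc38a4, an amino acid transporter expressed from the paternal allele, rose from 3354, 3155 and 3157 normalized counts to 9724, 9899 and 9294. Genes of the Dlk1-Dio3 domain fell, both the maternally expressed RNAs and the paternally expressed Rtl1 (log2 fold change -1.16) and Dlk1 (-0.56). Meg3 fell from 3275, 3514 and 3235 to 1646, 1586 and 1722, Rian by 1.0 and Mirg by 0.63 on the log2 scale. Meg3 had been higher by 0.72 in iEZR_CA ESCs. Phlda2 and Nnat fell by 1.90 and 1.6, and Igf2 stayed at or near 0 in both lines.

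Outside protein-coding genes, the largest differences at T24 were in features nearly absent from WT libraries, chosen here after their values were seen. Gm5739, a processed pseudogene, had 3.22, 6.06 and 6.31 normalized counts in WT and 2721, 2597 and 2839 in iEZR_CA cells. Ftl2-ps had 15.5, 9.08 and 14.2 against 3803, 3691 and 3859. Both had similar log2 fold changes in ESCs (8.68 and 8.44), and near-identical copies make such counts uncertain. By biotype, 35.8% of 14462 protein-coding genes were higher and 32.5% lower, whereas processed pseudogenes (2176 tested) were higher in 11.1% and lower in 20.8%, and lincRNA genes (543) in 17.1% and 24.1%.

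Genes that changed sign between the stages included Pax8, lower by 2.08 at T24 and higher by 2.47 in ESCs, Thbs1 (-1.36 and 2.16) and, the other way, Lrrc15 (3.94 and -1.24). The sizes in ESCs rest on low counts for Pax8 (means of 4.19 in WT and 22.1 in iEZR_CA ESCs) and Thbs1 (5.97 and 27.0). For Lrrc15 the WT mean at T24 was low (11.4).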
